A study of Mus musculus with 6 samples.

Results

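CD8+ T cells primed with interleukin-12 (IL-12) were compared with cells of the same origin primed with interleukin-2 (IL-2). The arrays were chosen by their titles, 2 of IL-12 primed and 2 of IL-2 primed cells, so that 4 of the 6 arrays in the series entered the comparison. All cells came from the spleens of female C57BL/6 mice carrying the Pmel-1 T cell receptor transgene, which gives their CD8+ T cells a single receptor for the melanoma antigen gp100. Both groups met gp100 for 4 days, and IL-2 or IL-12 was given for 6 days, so the antigen and its duration were shared and the labels name the cytokine as what differed. The other 2 arrays hold naive Pmel-1 cells taken fresh from the spleen and sorted as CD8+ Thy1.1+, and they served as a reference level. The labels give no age, name no sort for the primed cells, and do not say whether replicate arrays stem from different mice or cultures. All p-values therefore rest on the spread between these arrays alone, which may be technical.

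IL-2 binds a receptor of Il2ra, Il2rb and the common gamma chain and signals mainly through JAK1, JAK3 and STAT5, which drive division and survival of activated T cells. IL-12 binds Il12rb1 and Il12rb2, signals through TYK2, JAK2 and STAT4, and acts on CD8+ T cells beside antigen and costimulation, where it is known for raising interferon gamma. Both cytokines induce their own inhibitors, the SOCS family and related proteins, and T cells that leave the resting state build ribosomes, nucleotides and lipids before they divide.

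Each value below is a log2 signal as the authors deposited it, after robust multi-array averaging (RMA), a method that corrects the background, normalizes the arrays and sums the probes of a probe set. A difference is the mean of the IL-12 arrays minus the mean of the IL-2 arrays on that log2 scale. It is given ± its standard error (SE), with n = 2 arrays in each group. The SE is that of limma, which takes a gene's spread from all 6 arrays and draws it toward the spread of all tested genes. It is therefore not the spread of the 4 primed arrays of that gene alone. A gene is said to have risen or fallen where limma's adjusted p was under 0.05. Of 11147 genes tested, 2321 were called (20.8%), of which 1095 were higher with IL-12 (9.82% of those tested) and 1226 lower (11.0%). The median difference over all tested genes was 0.02. Where 0 members of a gene list are given in a direction by limma, 0 were found there at an unadjusted p under 0.05 as well, with few exceptions. These were 1 member each of the lists of endoplasmic reticulum folding, mitochondrial ribosomal proteins, granule proteins, autophagy and the MHC class I pathway. Both IL-12 arrays lay above both IL-2 arrays for 4027 genes (36.1%) and below both for 3723 (33.4%). Most of the called changes were small: the median size was 1.51-fold among the higher and 1.49-fold among the lower genes, and 186 and 182 of them reached 2-fold. Centring each array on its own median gave 872 higher and 1668 lower calls, so the balance between the directions depends on the scaling. Calls fell to 954 without IL-2 replicate 1, 737 without IL-2 replicate 2, 1219 without IL-12 replicate 1 and 1031 without IL-12 replicate 2, and 302 higher and 345 lower genes were called in each of these 4 fits. The share of all genes called higher was then 4.14%, 3.03%, 5.50% and 4.32% in that order, and the share called lower 4.41%, 3.58%, 5.44% and 4.93%. Where 4 counts of a gene list are given as "with 1 primed array left out", they follow that same order of arrays.

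The replicates were close, with a correlation across genes of 0.994 for the IL-2 pair and 0.992 for the IL-12 pair. Of 20 genes that differed by more than 1 log2 unit between the IL-12 replicates, 18 were higher on replicate 1. Markers of CD8+ T cells were high on every array: Cd8a, the alpha chain of the coreceptor, read 12.26 and 12.36 with IL-2, 12.17 and 12.12 with IL-12 and 12.61 and 12.66 in naive cells, and Cd3e, a chain of the receptor complex, 13.05 and 13.10 with IL-2 and 12.83 and 12.76 with IL-12. Cd4 lay below the expression filter, at 6.19 to 6.61 over the 6 arrays. Of 9 tested genes of CD8+ T cell identity 0 were higher and 5 lower (median -0.34; with 1 primed array left out, 1, 1, 1 and 1 lower), with mean levels of 12.20 and 12.25 with IL-2, 11.85 and 11.83 with IL-12 and 12.11 and 12.28 in naive cells. Genes of other cells were present too. Of 15 tested B cell markers 11 were higher with IL-12 and 0 lower (median difference 0.88; with 1 primed array left out, 10, 9, 9 and 9 higher), and their mean level was 6.53 and 6.41 with IL-2, 7.30 and 7.38 with IL-12 and 8.70 and 8.63 in naive cells. Of 8 tested genes of MHC class II presentation 5 were higher and 1 lower (with 1 primed array left out, 4, 4, 4 and 4 higher, and 1, 1, 1 and 1 lower), with mean levels of 8.13 and 8.0 with IL-2, 8.96 and 8.78 with IL-12 and 10.12 and 10.15 in naive cells. Of 9 tested markers of myeloid and dendritic cells 3 were higher (with 1 primed array left out, 3, 2, 2 and 2 higher), with mean levels of 6.37 and 6.16 with IL-2, 6.73 and 6.75 with IL-12 and 8.19 and 8.34 in naive cells, and the other 12 markers found on the array lay below the filter. Natural killer cell markers (1 higher and 1 lower of 5), CD4+ and regulatory T cell markers (1 higher and 2 lower of 6) and erythroid and platelet markers (0 of 3 called by limma, also at an unadjusted p under 0.05) did not share a direction. The mean levels of the B cell, MHC class II and myeloid lists were highest in naive cells, next in IL-12 primed and lowest in IL-2 primed cells, on every array. Their part in any result below was not tested, and in bulk RNA fewer cells of a type and less RNA per cell cannot be told apart.

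The receptors through which the cells sense cytokines moved in both directions. Of 7 tested IL-12 and IL-18 receptor chains and adaptors 5 rose with IL-12 and 1 fell (with 1 primed array left out, 4, 3, 5 and 4 higher, and 0, 0, 0 and 0 lower). Il18rap, the accessory chain of the IL-18 receptor, read 9.52 and 9.42 with IL-2, 10.75 and 11.06 with IL-12 and 8.57 and 8.31 in naive cells. Both IL-12 arrays stood above the other 4, and the difference was 1.43 ± 0.14, 2.69-fold higher, adjusted p = 0.000259 by limma. Of 7 receptors that share the common gamma chain 1 rose and 2 fell (with 1 primed array left out, 1, 1, 1 and 1 higher, and 2, 2, 2 and 2 lower). Il2ra, the chain that gives the IL-2 receptor its high affinity, was higher in cells primed with IL-12 (1.37, adjusted p = 0.000116), whereas the signalling chain Il2rb read 12.36 and 12.40 with IL-2 and 12.42 and 12.31 with IL-12, with overlapping groups and a difference of -0.02 ± 0.10 (adjusted p = 0.919). Il4ra, which binds IL-4 and also serves the IL-13 receptor, read 10.81 and 10.75 with IL-2, 9.85 and 9.62 with IL-12 and 10.92 and 10.94 in naive cells. The IL-12 arrays were the lowest of the 6, and the difference was -1.04 ± 0.11, 2.06-fold lower, adjusted p = 0.00043. Il6st, the gp130 chain through which IL-6 and IL-27 signal, rose (9.94 and 10.02 with IL-2 and 11.17 and 11.10 with IL-12, a difference of 1.16 ± 0.10, adjusted p = 0.000143), while its partners Il6ra (-2.56) and Il27ra (-0.64) fell, the latter with its call lost without IL-2 replicate 2 (adjusted p = 0.0624). Chains of the type I interferon receptor and Il10rb fell as well and are given with the interferon genes.

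Behind the receptors, the STAT and JAK genes moved little, apart from 1 member: of 9 tested, 1 rose and 3 fell (with 1 primed array left out, 1, 1, 1 and 1 higher, and 0, 0, 1 and 0 lower). Stat5a, the factor that carries the IL-2 signal, read 9.42 and 9.58 with IL-2, 10.46 and 10.22 with IL-12 and 9.83 and 9.76 in naive cells, and rose with IL-12 by 0.84 ± 0.12 (adjusted p = 0.00189). Its paralog Stat5b did not pass the test (0.22, adjusted p = 0.14). Stat4, which carries the IL-12 signal, was lower with IL-12 (-0.49), as were the kinase Jak2 (-0.43) and Stat6 (-0.35), all by less than 1.5-fold. With 1 primed array left out, the limma call was lost without IL-2 replicate 1 for Stat4, Jak2 and Stat6 (adjusted p from 0.108 to 0.207) and without IL-2 replicate 2 for Stat4, Jak2 and Stat6 (adjusted p from 0.125 to 0.219). The same happened without IL-12 replicate 1 for Jak2 and Stat6 (adjusted p from 0.0757 to 0.107) and without IL-12 replicate 2 for Stat4, Jak2 and Stat6 (adjusted p from 0.0754 to 0.302).

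Feedback inhibitors of cytokine signalling moved in both directions. Of 15 tested, 3 rose and 4 fell (with 1 primed array left out, 1, 1, 2 and 1 higher, and 3, 3, 3 and 4 lower). Cish and Socs2, both targets of STAT5 that limit signalling through it, and Sh2b3, an adaptor that restrains JAK2, were lower with IL-12 and kept their calls in all 4 fits without 1 primed array. Cish read 9.16 and 9.08 with IL-2, 8.07 and 8.11 with IL-12 and 7.82 and 7.95 in naive cells. The difference was -1.03 ± 0.10, 2.05-fold lower, adjusted p = 0.000296. Socs2 read 10.49 and 10.58 with IL-2, 8.89 and 9.48 with IL-12 and 6.37 and 6.69 in naive cells. The difference was -1.35 ± 0.19, 2.55-fold lower, adjusted p = 0.00174. In both genes naive cells had the lowest values, so that priming with IL-12 left levels nearer to the naive state. Sh2b3 fell by 0.94 ± 0.11 (adjusted p = 0.000605). Among the rises, Ptpn2, a phosphatase that acts on JAKs and STATs, gained 0.52 ± 0.10 (adjusted p = 0.0101) and Socs3, which is induced by STAT3, 0.47 ± 0.13 (adjusted p = 0.0377). Socs1 read 8.49 and 8.96 with IL-2 and 9.30 and 9.18 with IL-12 and missed the threshold (adjusted p = 0.098). The call was lost without IL-2 replicate 1 for Ptpn2 and Socs3 (adjusted p from 0.0525 to 0.253) and without IL-2 replicate 2 for Ptpn2 and Socs3 (adjusted p from 0.0712 to 0.111). Further losses came without IL-12 replicate 1 for Socs3 (adjusted p = 0.163) and without IL-12 replicate 2 for Ptpn2 and Socs3 (adjusted p from 0.082 to 0.126).

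A list of genes known to respond to IL-2 and STAT5, induced or repressed, did not share 1 direction: of 16 tested, 4 rose and 3 fell (with 1 primed array left out, 4, 4, 4 and 5 higher, and 3, 1, 3 and 2 lower). The survival kinases Pim1 and Pim2 rose, Pim2 from 10.75 and 10.98 to 12.18 and 12.08 (difference 1.26 ± 0.12, adjusted p = 0.00024) and Pim1 by 0.87 ± 0.14 (adjusted p = 0.00331), together with Il2ra. The other rise was Bcl6 (0.73, adjusted p = 0.00271), a repressor that STAT5 is known to hold down, so that the 4 rises hold 3 genes known to be induced and 1 known to be repressed. Bcl2, which protects from cell death, fell from 10.96 and 11.26 to 10.37 and 9.93 (difference -0.96 ± 0.16, adjusted p = 0.0041), and its call was lost without IL-2 replicate 2 (adjusted p = 0.0509). The related survival genes Mcl1 (-0.04, adjusted p = 0.835) and Bcl2l1 (-0.17, adjusted p = 0.375) were not called, and Pmaip1, which binds and inactivates Mcl1 protein, rose by 1.04 ± 0.12 (adjusted p = 0.000577).

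The promoter of Cish is printed because Cish, a textbook STAT5 target, fell, and that of Irf8 because Irf8 was the transcription factor of the interferon family with the largest rise. The windows run from 250 bases before to 50 after the start of the gene and come from RefSeq (build GRCm38.p6). Capitals mark matches to TTCNNNGAA, the palindrome that STAT dimers bind, searched on both strands. The Cish window lies at chr9:107296409-107296708 and the first of 2 Irf8 windows at chr8:120736108-120736407, both on the plus strand, and the second Irf8 window held no match.
Cish: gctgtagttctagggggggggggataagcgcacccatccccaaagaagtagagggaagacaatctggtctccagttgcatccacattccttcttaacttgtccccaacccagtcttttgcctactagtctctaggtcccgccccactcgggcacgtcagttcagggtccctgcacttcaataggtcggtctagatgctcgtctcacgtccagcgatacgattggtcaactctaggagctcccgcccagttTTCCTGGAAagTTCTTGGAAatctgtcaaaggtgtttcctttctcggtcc
Irf8: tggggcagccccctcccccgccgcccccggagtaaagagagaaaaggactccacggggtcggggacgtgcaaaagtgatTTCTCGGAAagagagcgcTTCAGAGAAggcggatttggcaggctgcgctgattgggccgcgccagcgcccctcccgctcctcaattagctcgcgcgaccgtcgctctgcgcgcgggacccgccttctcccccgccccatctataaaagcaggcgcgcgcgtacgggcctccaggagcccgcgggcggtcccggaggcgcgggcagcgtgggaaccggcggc
Both windows held 2 matches. Such a match was found in 8.30% of all 32851 promoters in the table, in 4 of 16 windows of 13 matched genes of the IL-2 and STAT5 target list (25.0%), in 8.40% of promoters of all genes higher with IL-12 and in 7.95% of those of all lower genes. The letters describe the window and do not show binding.

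**Figure D1:**
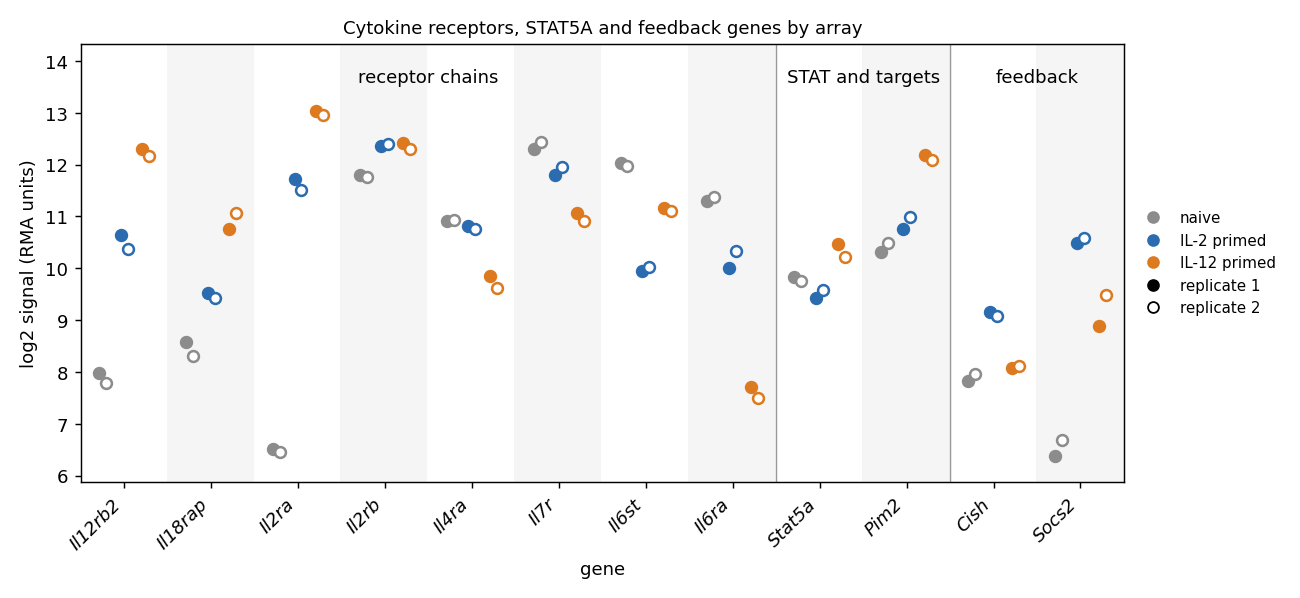
Log2 signal on each of the 6 arrays (vertical axis, log2 RMA units) for 12 cytokine receptor, STAT and feedback genes, with naive arrays in grey, IL-2 arrays in blue and IL-12 arrays in orange; each point is 1 array. Cish, Socs2, Il4ra, Il6ra and Il7r were lower on both IL-12 arrays than on both IL-2 arrays, and Il12rb2, Il18rap, Il2ra, Il6st, Stat5a and Pim2 were higher, while the groups overlapped for Il2rb.

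The interferon system was lower at its receptors and at many type I targets, yet a small set of genes known to respond to interferon gamma was higher. Of 6 tested receptor chains of the interferon and IL-10 family 4 fell and 0 rose (median -0.88; with 1 primed array left out, 4, 3, 4 and 4 lower). Ifnar2, a chain of the type I interferon receptor, read 11.72 and 11.76 with IL-2, 10.51 and 10.76 with IL-12 and 10.95 and 11.08 in naive cells. The difference was -1.10 ± 0.12, 2.15-fold lower, adjusted p = 0.000416. Its partner Ifnar1 read 10.61 and 10.69 with IL-2 and 9.77 and 9.74 with IL-12. The difference was -0.89 ± 0.10, 1.85-fold lower, adjusted p = 0.000499. Il10rb, the chain shared by the receptors for IL-10 and type III interferon, fell by 0.89 ± 0.10 (adjusted p = 0.000466), and both IL-12 arrays lay below both IL-2 arrays for each of these chains. Ifngr2, a chain of the interferon gamma receptor, was far lower in both primed groups than in naive cells: it read 7.48 and 7.57 with IL-2, 6.44 and 6.87 with IL-12 and 10.76 and 11.02 in naive cells. It fell further with IL-12 (-0.87 ± 0.15, adjusted p = 0.00543), a call that was lost without IL-2 replicate 2 (adjusted p = 0.0585). Ifngr1 (-0.22, adjusted p = 0.149) and Il10ra (0.16, adjusted p = 0.389) were not called.

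Among 37 tested genes that type I interferon is known to induce, 14 fell and 2 rose, with a median of -0.23. The number lower was 10, 9, 11 and 10 with 1 primed array left out (medians from -0.29 to -0.20). Rtp4, a chaperone of receptors with antiviral activity, read 7.77 and 7.75 with IL-2, 5.84 and 5.76 with IL-12 and 9.71 and 10.02 in naive cells, and Xaf1, which promotes cell death, 8.55 and 8.50 with IL-2, 7.01 and 7.08 with IL-12 and 9.34 and 9.24 in naive cells. For both genes the order was naive above IL-2 above IL-12 with no overlap, and the differences were -1.96 ± 0.12 (adjusted p = 2.82e-05) and -1.48 ± 0.10 (adjusted p = 4.25e-05). The sensors of viral RNA Ddx58 (-1.10 ± 0.12, 2.15-fold lower, adjusted p = 0.00042) and Ifih1 (-0.82 ± 0.10, 1.77-fold lower, adjusted p = 0.00108) fell, and so did Irf7, the amplifier of the type I response (-1.30 ± 0.13, 2.47-fold lower, adjusted p = 0.000354). The other falls called in all 4 fits without 1 primed array were Isg20, an RNA exonuclease (-1.26), Herc6, a ligase for the ubiquitin-like Isg15 (-1.08), and Ifi27l2a (-1.58). Naive cells stood above both primed groups for 33 of the 37 genes. Several classical targets were already low with IL-2 and were not called, such as Ifit3, which read 7.05 and 6.98 with IL-2, 6.78 and 6.79 with IL-12 and 10.27 and 10.57 in naive cells, and Oas2 at 6.71 and 6.61 with IL-2, 6.80 and 6.45 with IL-12 and 9.77 and 9.52 in naive cells.

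The exceptions were Usp18 and the dynamin-like Mx1 (0.47, adjusted p = 0.0289). Usp18, which removes Isg15 from proteins and blocks the type I receptor at Ifnar2, read 6.36 and 6.29 with IL-2, 10.84 and 10.03 with IL-12 and 10.53 and 10.90 in naive cells. The IL-12 arrays were thus close to the naive level and the IL-2 arrays alone were low. Irf9, a subunit of the factor through which type I interferon acts, was lower (-0.58, adjusted p = 0.0133), as was Ifit1, which binds viral RNA (7.20 and 6.96 with IL-2, 6.48 and 6.35 with IL-12 and 9.94 and 10.51 in naive cells, adjusted p = 0.0303). The calls were lost without IL-2 replicate 1 for Mx1 and Ifit1 (adjusted p from 0.0608 to 0.186) and without IL-2 replicate 2 for Mx1, Irf9 and Ifit1 (adjusted p from 0.0888 to 0.231). Losses were also seen without IL-12 replicate 1 for Mx1, Irf9 and Ifit1 (adjusted p from 0.0527 to 0.083) and without IL-12 replicate 2 for Mx1, Irf9 and Ifit1 (adjusted p from 0.0914 to 0.181).

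Guanylate-binding proteins, GTPases known as targets of interferon gamma that attack vacuoles of pathogens, went the other way for 3 of their members. Of 9 tested members of this and the related IRG family 4 rose and 1 fell (with 1 primed array left out, 3, 3, 3 and 3 higher, and 0, 0, 1 and 0 lower). Of 18 listed members 9 were found among the genes used here. Gbp2, Gbp6, Gbp10, Irgm2, Igtp, Ifi47, Tgtp1, Tgtp2 and Gvin1 were not found and so were not tested. Gbp3 read 8.47 and 8.51 with IL-2, 10.14 and 10.22 with IL-12 and 7.98 and 7.84 in naive cells. The difference was 1.69 ± 0.10, 3.22-fold higher, adjusted p = 2.57e-05. Gbp5 read 7.32 and 7.44 with IL-2, 9.50 and 9.25 with IL-12 and 8.05 and 8.01 in naive cells. The difference was 1.99 ± 0.12, 3.98-fold higher, adjusted p = 2.34e-05. Gbp7 rose from 9.35 and 9.45 to 11.04 and 10.90 (1.57 ± 0.12, adjusted p = 8.37e-05). For each of the 3 both IL-12 arrays were the highest of the 6. Gbp9 fell (-0.49, adjusted p = 0.0122) and Iigp1 rose (0.48, adjusted p = 0.036), with calls lost without IL-2 replicate 1 for Gbp9 and Iigp1 (adjusted p from 0.063 to 0.232) and without IL-2 replicate 2 for Gbp9 and Iigp1 (adjusted p from 0.0896 to 0.121). Calls were also lost without IL-12 replicate 1 for Iigp1 (adjusted p = 0.119) and without IL-12 replicate 2 for Gbp9 and Iigp1 (adjusted p from 0.1 to 0.166). Members of this family are close in sequence, and the probe sets may share signal. Ifng itself rose from 10.25 and 9.43 to 12.35 and 12.08, and Irf8, a transcription factor downstream of interferon gamma that B and myeloid cells also express, from 7.94 and 7.90 to 10.43 and 10.26, above the naive values of 8.66 and 8.86 (difference 2.43 ± 0.12, 5.37-fold higher, adjusted p = 8.79e-06). Irf1 read 11.03 and 10.69 with IL-2 and 11.51 and 11.21 with IL-12, a difference of 0.50, adjusted p = 0.0451, which another probe set of the gene did not show (-0.05), and Irf4 8.95 and 8.82 with IL-2 and 9.50 and 9.56 with IL-12, a difference of 0.64, adjusted p = 0.0044, and their calls were lost without IL-2 replicate 1 for Irf1 (adjusted p = 0.0535) and without IL-2 replicate 2 for Irf1 and Irf4 (adjusted p from 0.063 to 0.305). The same happened without IL-12 replicate 1 for Irf1 (adjusted p = 0.248) and without IL-12 replicate 2 for Irf1 (adjusted p = 0.0589). The MHC class I pathway and immunoproteasome, which interferon gamma is also known to induce, had 0 of 17 tested members called by limma in either direction. At an unadjusted p under 0.05 there was 1, and the median was 0.08. The heavy chains H2-K1, H2-D1 and H2-T23 were not found among the genes used here and so were not tested.

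The promoters of Ifit1 and Ddx58, which fell, and of Gbp3 and Gbp5, which rose, are printed because all 4 carry the sequence by which interferon-activated factors are known to bind, so that genes of both directions hold it. Capitals mark GAAANNGAA, the core of the interferon-stimulated response element, searched on both strands and shown as its reverse complement where it lies on the other strand. The windows are from RefSeq (GRCm38.p6), each 300 bases long and written along the gene: Ifit1 at chr19:34640639-34640938 on the plus strand, Ddx58 at chr4:40239776-40240075 on the minus strand, and Gbp3 at chr3:142559794-142560093 (its first of 2 windows, the second without a match) and Gbp5 at chr3:142496684-142496983, both on the plus strand.
Ifit1: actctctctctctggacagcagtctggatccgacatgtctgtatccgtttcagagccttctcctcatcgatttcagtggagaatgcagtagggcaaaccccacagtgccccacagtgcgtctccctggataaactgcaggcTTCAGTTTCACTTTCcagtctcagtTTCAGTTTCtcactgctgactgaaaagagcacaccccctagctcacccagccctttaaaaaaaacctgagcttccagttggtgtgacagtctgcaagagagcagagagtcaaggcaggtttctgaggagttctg
Ddx58: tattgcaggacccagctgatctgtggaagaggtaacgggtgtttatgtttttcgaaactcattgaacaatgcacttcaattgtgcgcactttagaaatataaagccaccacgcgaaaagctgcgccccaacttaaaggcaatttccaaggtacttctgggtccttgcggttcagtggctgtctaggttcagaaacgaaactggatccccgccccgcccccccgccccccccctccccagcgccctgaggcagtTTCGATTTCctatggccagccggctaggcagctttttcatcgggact
Gbp3: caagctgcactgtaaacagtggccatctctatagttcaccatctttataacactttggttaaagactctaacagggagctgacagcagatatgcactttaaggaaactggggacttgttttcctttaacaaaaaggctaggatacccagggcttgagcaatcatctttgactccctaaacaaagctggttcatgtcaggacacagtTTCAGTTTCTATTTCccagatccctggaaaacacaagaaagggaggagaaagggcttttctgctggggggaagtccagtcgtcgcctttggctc
Gbp5: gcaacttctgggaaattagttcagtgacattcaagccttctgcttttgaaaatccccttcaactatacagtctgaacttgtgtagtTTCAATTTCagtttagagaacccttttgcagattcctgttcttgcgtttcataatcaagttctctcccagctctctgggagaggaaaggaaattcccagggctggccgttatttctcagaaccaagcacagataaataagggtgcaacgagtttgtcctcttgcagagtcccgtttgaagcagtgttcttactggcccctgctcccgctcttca
A gene can have several windows in the table. The motif was present in 13 of 36 windows of the 28 matched genes of the type I list (36.1%), in 6 of 17 windows of its 12 matched members that fell (35.3%) and in 4 of 5 windows of 4 matched genes of the guanylate-binding and IRG list, against 8.56% of all promoters in the table and 7.03% of those of tested genes. It was found in 9.96% of promoters of all lower genes and in 7.57% of those of all higher genes. Promoters of Usp18, Rtp4, Mx1, Il10 and Socs2 are not printed.

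**Figure D2:**
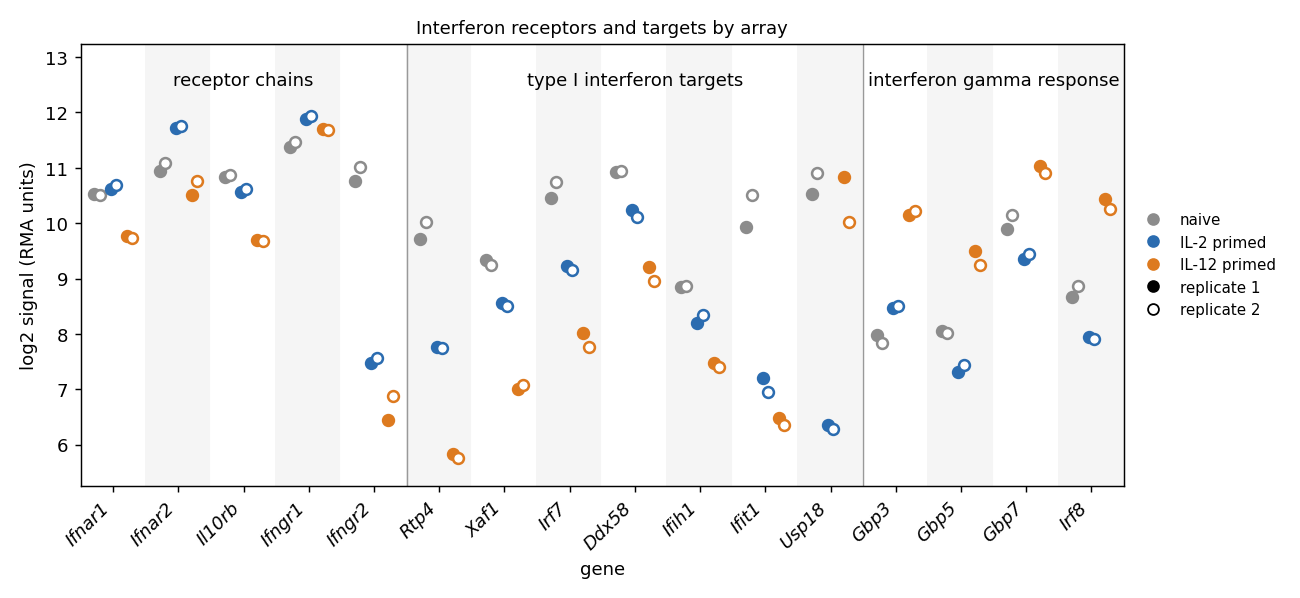
Log2 signal on each of the 6 arrays (vertical axis, log2 RMA units) for 5 interferon and IL-10 receptor chains, 7 type I interferon targets and 4 genes known to respond to interferon gamma; each point is 1 array, grey for naive, blue for IL-2 and orange for IL-12. Ifnar1, Ifnar2, Il10rb, Ifngr2, Rtp4, Xaf1, Irf7, Ddx58, Ifih1 and Ifit1 were lower on both IL-12 arrays than on both IL-2 arrays, and Usp18, Gbp3, Gbp5, Gbp7 and Irf8 were higher.

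Genes of ribosome assembly, nuclear transport, tRNA loading and protein folding were higher with IL-12, whereas cytosolic ribosomal proteins, lysosome genes and autophagy genes were not. Of 55 tested genes of the nucleolus and ribosome biogenesis 32 rose and 1 fell, the median difference was 0.52 against 0.02 over all genes, and both IL-12 arrays lay above both IL-2 arrays for 51 of the 55. The mean level of the list was 9.37 and 9.27 with IL-2, 9.71 and 9.88 with IL-12 and 9.38 and 9.55 in naive cells. The IL-12 arrays were above both other groups, which did not lie far from each other. Polr1b, a subunit of RNA polymerase I, which transcribes ribosomal RNA, read 8.99 and 8.89 with IL-2, 9.79 and 9.92 with IL-12 and 9.64 and 9.75 in naive cells. The difference was 0.91 ± 0.11, 1.89-fold higher, adjusted p = 0.000667. Bysl, which helps assemble the small ribosomal subunit, rose by 0.82 ± 0.13 (adjusted p = 0.00368), Rrp1b by 0.81 ± 0.12 (adjusted p = 0.00271) and Mybbp1a, a nucleolar regulator of transcription, by 0.76 ± 0.12 (adjusted p = 0.00336). Dkc1, the enzyme that makes pseudouridine in ribosomal RNA, had the largest difference of the list (0.93, adjusted p = 0.00976), and Wdr12 was the member that fell (-0.37, adjusted p = 0.0491). The count depended on the arrays: it was 19 without IL-2 replicate 1, 4 without IL-2 replicate 2, 28 without IL-12 replicate 1 and 8 without IL-12 replicate 2, with medians from 0.45 to 0.62. Single calls were lost without IL-2 replicate 1 for Dkc1 and Wdr12 (adjusted p from 0.0587 to 0.301) and without IL-2 replicate 2 for Dkc1 and Wdr12 (adjusted p from 0.0768 to 0.112). Further losses came without IL-12 replicate 1 for Wdr12 (adjusted p = 0.247) and without IL-12 replicate 2 for Dkc1 and Wdr12 (adjusted p from 0.0712 to 0.112). The 27 tested cytosolic ribosomal proteins had a median of -0.07 and 0 calls by limma, also at an unadjusted p under 0.05.

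Genes of traffic into and out of the nucleus showed the same balance. Of 46 tested nuclear pore and transport genes 19 rose and 0 fell (median 0.33), and both IL-12 arrays were above both IL-2 arrays for 44. Nup107, a scaffold protein of the pore, read 9.23 and 9.24 with IL-2, 10.04 and 10.11 with IL-12 and 8.76 and 8.62 in naive cells. The difference was 0.84 ± 0.10, 1.79-fold higher, adjusted p = 0.000841. Ranbp1 (0.71), which helps recycle the transport GTPase, and Ipo4 (0.64), an importer of histones and ribosomal proteins, were also called in every fit without 1 primed array. Members called higher numbered 6, 3, 9 and 3 with 1 primed array left out (medians from 0.29 to 0.41).

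Of 25 tested aminoacyl tRNA synthetases, which load amino acids onto their tRNAs, 14 rose and 0 fell (median 0.43). Cars, which loads cysteine, read 8.66 and 8.51 with IL-2, 9.54 and 9.39 with IL-12 and 8.34 and 8.11 in naive cells. The difference was 0.88 ± 0.12, 1.84-fold higher, adjusted p = 0.00173. The scaffold protein Aimp2 (0.80) and the methionine enzyme Mars1 (0.79) followed. The list counted 7, 1, 6 and 4 with 1 primed array left out (medians from 0.37 to 0.49). Amino acid transporters moved in both directions, with 6 of 20 higher and 4 lower (median 0.07; with 1 primed array left out, 4, 2, 2 and 4 higher, and 3, 2, 3 and 2 lower). Slc7a5, which carries leucine and other large ones, read 11.34 and 11.04 with IL-2, 12.39 and 12.15 with IL-12 and 10.45 and 10.78 in naive cells, a rise of 1.08 ± 0.15 (adjusted p = 0.00193), while Slc38a9, a lysosomal arginine sensor, fell by 0.90 ± 0.10 (adjusted p = 0.000519). The largest change of the list was the fall of Slc6a19, a carrier of neutral amino acids (-3.92 ± 0.16, 15.2-fold lower, adjusted p = 6.26e-06). Limma's call was lost without IL-2 replicate 1 for Aimp2 (adjusted p = 0.0865) and without IL-2 replicate 2 for Aimp2 and Mars1 (adjusted p from 0.0554 to 0.0744). Losses were also seen without IL-12 replicate 1 for Aimp2 (adjusted p = 0.0634) and without IL-12 replicate 2 for Aimp2 (adjusted p = 0.063).

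Genes of protein folding were higher too, with 13 of 21 cytosolic and mitochondrial chaperones called higher and 0 lower (median 0.46). Hsp90aa1, the inducible form of Hsp90, read 11.72 and 11.63 with IL-2, 12.41 and 12.56 with IL-12 and 11.31 and 11.30 in naive cells (0.81 ± 0.10, 1.75-fold higher, adjusted p = 0.00118), and Hspa9, the Hsp70 of mitochondria, rose by 0.73 ± 0.11 (adjusted p = 0.00247). The count was 5, 2, 9 and 3 with 1 primed array left out (medians from 0.39 to 0.55). For degradation, 8 of 34 subunits of the constitutive proteasome were called higher and 0 lower. Their differences were small but one-sided, with a median of 0.34 and both IL-12 arrays above both IL-2 arrays for 33 of 34. Psma5, a subunit of the core ring, read 9.68 and 9.58 with IL-2 and 10.13 and 10.25 with IL-12 (0.55, adjusted p = 0.0474). These calls did not survive the loss of an array: the count was 0, 0, 2 and 0 with 1 primed array left out (medians from 0.30 to 0.37). Smaller shares of the list of endoplasmic reticulum folding genes (10 of 42 higher, 0 lower, median 0.21; with 1 primed array left out, 2, 1, 2 and 1 higher), of translation factors (8 of 39, median 0.16; with 1 primed array left out, 3, 0, 4 and 2 higher) and of mitochondrial ribosomal proteins (6 of 54, median 0.20; with 1 primed array left out, 2, 1, 3 and 1 higher) were called. Over all tested genes 9.82% were called higher, and the share of mitochondrial ribosomal proteins lay close to that. Ern1, the sensor of unfolded protein in the endoplasmic reticulum, read 7.98 and 7.95 with IL-2, 8.86 and 8.82 with IL-12 and 7.93 and 7.99 in naive cells and rose by 0.87 ± 0.10 (adjusted p = 0.000544). Of 33 tested genes of the vacuolar ATPase, cathepsins and lysosome 2 rose and 5 fell (median -0.10), a share close to the 20.8% called over all tested genes. The majority direction of that list turned in every fit without 1 primed array. Among its members Atp6v0d2, a subunit of the proton pump, rose (3.17, adjusted p = 0.000297 by limma). It read 4.61 and 4.5 with IL-2, 8.35 and 7.1 with IL-12 and 4.56 and 4.5 in naive cells. Its IL-2 and naive values lay under the floor of 4.96, so the size of the rise is uncertain. Npc1, which exports cholesterol from lysosomes, fell (-0.76, adjusted p = 0.00136). The call of Psma5 was lost without IL-2 replicate 1 (adjusted p = 0.146) and without IL-2 replicate 2 (adjusted p = 0.232). It was also lost without IL-12 replicate 1 (adjusted p = 0.114) and without IL-12 replicate 2 (adjusted p = 0.216).

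**Figure D3:**
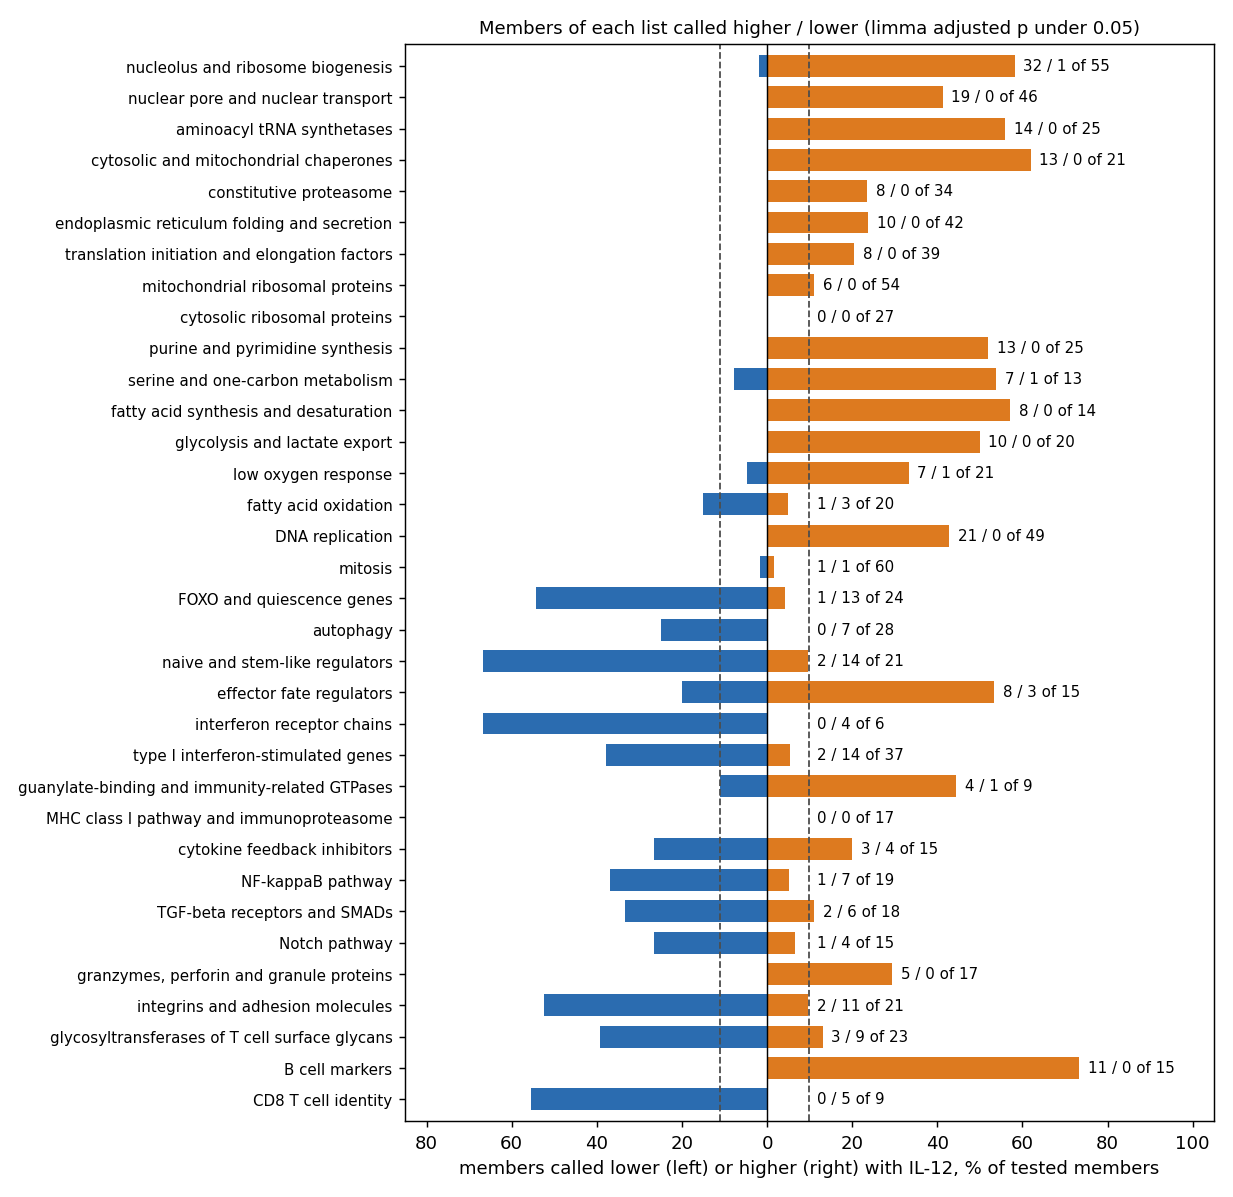
Share of the tested members of 34 gene lists called higher with IL-12 (orange, to the right of 0) or lower (blue, to the left of 0) by limma at an adjusted p under 0.05, in percent, with the counts of higher and lower members over tested members printed beside each bar. Dashed lines mark the shares over all 11147 tested genes, 9.82% higher and 11.0% lower; the lists of ribosome assembly, nuclear transport, tRNA loading, chaperones and nucleotide synthesis extend to the right and those of quiescence, interferon receptors and type I targets to the left.

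Genes that supply building blocks were higher as well. Of 25 tested genes of purine and pyrimidine synthesis 13 rose and 0 fell (median 0.37). Ctps, which makes CTP, read 7.93 and 7.97 with IL-2, 8.59 and 8.94 with IL-12 and 7.54 and 7.69 in naive cells (difference 0.81 ± 0.13, 1.75-fold higher, adjusted p = 0.00391). Pfas, an enzyme of purine ring assembly, rose by 0.62 ± 0.10 (adjusted p = 0.00311). Cad, which starts pyrimidine synthesis, gained 0.71, adjusted p = 0.00621. The list counted 5, 2, 8 and 4 with 1 primed array left out (medians from 0.33 to 0.41). Of 13 genes of serine and one-carbon metabolism, which feeds the purine ring and thymidylate, 7 rose and 1 fell (median 0.44). The serine hydroxymethyltransferases of the mitochondria and the cytosol, Shmt2 (0.96, adjusted p = 0.00119) and Shmt1 (0.75, adjusted p = 0.00361), and Mthfd1 (0.91, adjusted p = 0.00231) were called in all fits without 1 primed array, as was the member that fell, Izumo1r, the folate receptor 4 of T cells (-1.15, adjusted p = 0.00151). Higher members of that list numbered 4, 3, 3 and 4 with 1 primed array left out (medians from 0.41 to 0.48). The call of Cad was lost without IL-2 replicate 2 (adjusted p = 0.0684).

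Enzymes that make lipids rose without an exception in direction among the called members. Of 14 genes of fatty acid synthesis and desaturation 8 rose and 0 fell (median 0.44). The number higher was 4, 4, 4 and 5 with 1 primed array left out (medians from 0.36 to 0.54). Scd1, which introduces the double bond of oleic acid, read 10.36 and 9.16 with IL-2, 12.03 and 11.41 with IL-12 and 9.26 and 9.31 in naive cells. The difference was 1.96 ± 0.34, 3.9-fold higher, adjusted p = 0.00496. Acaca (0.73, adjusted p = 0.00231), the first committed step, Fasn (0.77, adjusted p = 0.003), the synthase, and Fads2 (1.20, adjusted p = 0.00307), a desaturase of longer chains, were likewise called in every fit without 1 primed array. Oxidation of fatty acids had 1 member higher and 3 lower of 20 tested (with 1 primed array left out, 1, 1, 1 and 1 higher, and 1, 0, 0 and 1 lower). Acadl, the dehydrogenase for long chains, rose from 10.06 and 10.05 to 11.06 and 11.09 (1.01 ± 0.10, adjusted p = 0.000233), and Cpt1a, the gate for entry into mitochondria, fell from 10.91 and 11.01 to 10.27 and 10.36 (-0.65 ± 0.12, adjusted p = 0.00789), a call that was lost without IL-2 replicate 2 (adjusted p = 0.085) and without IL-12 replicate 1 (adjusted p = 0.0555).

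Genes of sugar use were higher with IL-12, and unevenly between the replicates. Of 20 tested genes of glycolysis and lactate export 10 rose and 0 fell (median 0.69), and their mean level was 10.12 and 9.96 with IL-2, 11.02 and 10.48 with IL-12 and 9.33 and 9.54 in naive cells. Hk2, the hexokinase that traps glucose, read 7.22 and 7.09 with IL-2, 9.25 and 8.99 with IL-12 and 6.44 and 6.48 in naive cells (difference 1.96 ± 0.12, 3.9-fold higher, adjusted p = 2.57e-05). Slc2a1, the glucose transporter GLUT1, read 10.36 and 10.10 with IL-2, 11.91 and 11.20 with IL-12 and 10.25 and 10.57 in naive cells. The difference was 1.33 ± 0.22, 2.51-fold higher, adjusted p = 0.00405. In both, IL-12 replicate 1 was the highest array, and both IL-12 arrays lay above the rest. Pfkl (1.15) and Pgam1 (1.03), enzymes of the upper and lower part of the path, were called in every fit without 1 primed array. The list counted 6 without IL-2 replicate 1, 4 without IL-2 replicate 2, 6 without IL-12 replicate 1 and 12 without IL-12 replicate 2, with medians from 0.44 to 0.95.

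In their mean level, genes of the response to low oxygen separated the IL-12 replicates from each other more than the groups. Of 21 tested, 7 were called higher and 1 lower, and the mean level was 9.26 and 9.22 with IL-2, 9.82 and 9.14 with IL-12 and 8.62 and 8.75 in naive cells. By that mean, IL-12 replicate 1 was alone above the IL-2 arrays. Gene by gene, both IL-12 arrays lay above both IL-2 arrays for 12 of the 21. The mean includes Nrn1, the member that fell, which read 11.25 and 11.43 with IL-2 and 8.38 and 7.29 with IL-12. Egln3, an oxygen sensor, read 9.28 and 9.0 with IL-2, 11.21 and 9.86 with IL-12 and 7.66 and 8.10 in naive cells, and Fam162a, a target of hypoxia-inducible factor, 8.95 and 8.92 with IL-2, 10.27 and 9.49 with IL-12 and 8.63 and 8.80 in naive cells. Without 1 primed array the higher calls were 0 without IL-2 replicate 1, 1 without IL-2 replicate 2, 1 without IL-12 replicate 1 and 10 without IL-12 replicate 2, with medians from 0.23 to 0.57, and no higher call held in all 4 fits. Hif1a itself read 11.51 and 11.47 with IL-2, 12.03 and 11.95 with IL-12 and 10.94 and 10.98 in naive cells (0.50, adjusted p = 0.0094). The calls were lost without IL-2 replicate 1 for Egln3, Fam162a and Hif1a (adjusted p from 0.0647 to 0.0849) and without IL-2 replicate 2 for Egln3, Fam162a and Hif1a (adjusted p from 0.098 to 0.16). Calls were also lost without IL-12 replicate 1 for Egln3 and Hif1a (adjusted p from 0.0643 to 0.072).

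**Figure D4:**
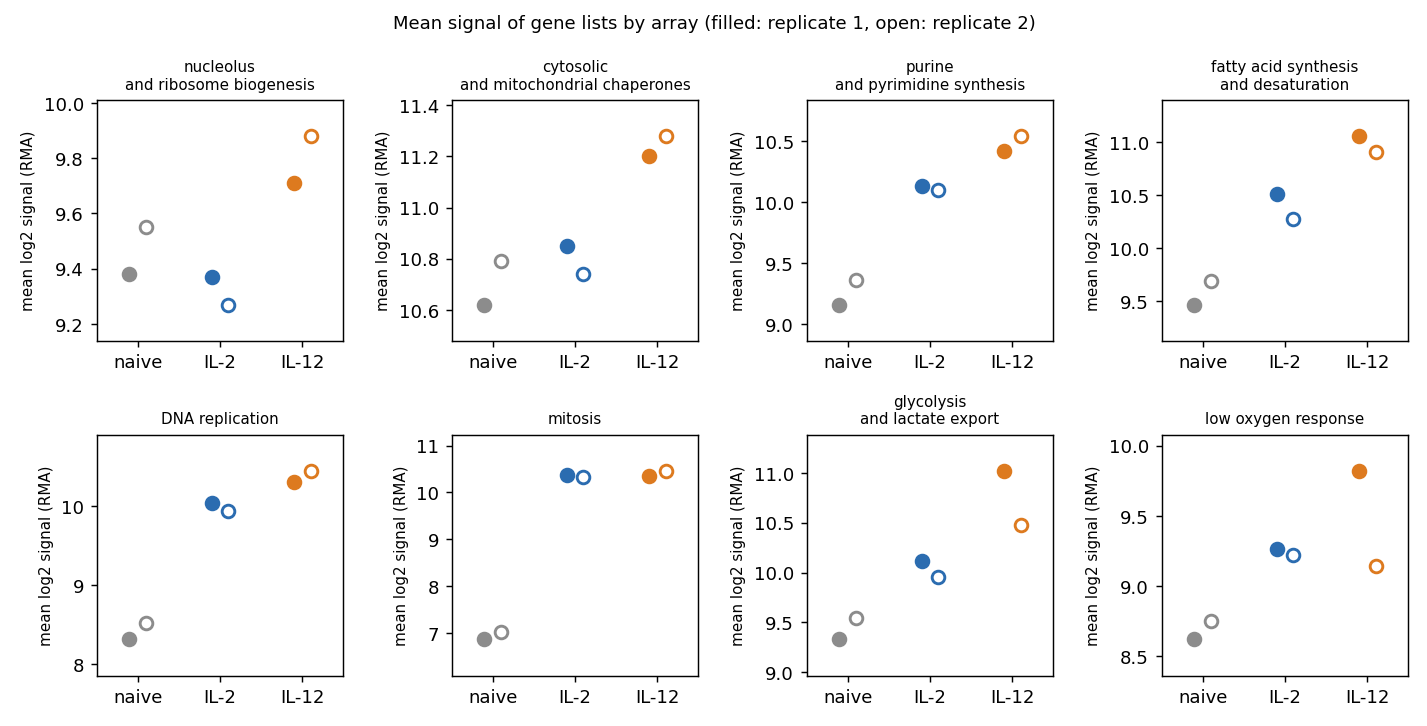
Mean log2 signal of the tested members of 8 gene lists (vertical axes, log2 RMA units, a separate scale for each panel) on the 6 arrays; each point is 1 array, grey for naive, blue for IL-2 and orange for IL-12, with a filled circle for replicate 1 and an open circle for replicate 2. The IL-12 arrays lay above the IL-2 arrays in the panels of the nucleolus, chaperones, purines and pyrimidines, fatty acid synthesis, DNA replication and glycolysis, while for low oxygen IL-12 replicate 1 stood alone and for mitosis the primed groups lay close together.

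Genes of DNA copying were higher with IL-12, while genes of mitosis showed no such shift. Of 49 tested DNA replication genes 21 rose and 0 fell, the median was 0.39, and both IL-12 arrays were above both IL-2 arrays for 47. Pole2, a subunit of the leading-strand polymerase, read 9.56 and 9.58 with IL-2, 10.48 and 10.66 with IL-12 and 8.29 and 8.52 in naive cells (difference 1.0 ± 0.12, 2-fold higher, adjusted p = 0.000734). Orc1, which marks replication origins, read 7.71 and 7.55 with IL-2, 8.40 and 8.71 with IL-12 and 5.17 and 5.24 in naive cells. The difference was 0.92 ± 0.13, 1.9-fold higher, adjusted p = 0.00173. For both, naive cells were lowest and IL-12 primed cells highest. Mcm2, a subunit of the replicative helicase, rose by 0.70 ± 0.14 (adjusted p = 0.00819). Called members numbered 5, 2, 9 and 2 with 1 primed array left out (medians from 0.31 to 0.46). Of 60 mitosis genes, in contrast, 1 rose and 1 fell, with a median of 0.07. Mki67, which coats mitotic chromosomes, read 12.41 and 12.24 with IL-2, 12.23 and 12.28 with IL-12 and 8.36 and 8.25 in naive cells (difference -0.07 ± 0.11, adjusted p = 0.697), far above naive in both primed groups and overlapping between them. Whether the lists of replication and mitosis differ from each other was not tested. Cyclin D3, encoded by Ccnd3 and needed to pass into the replication phase in lymphocytes, rose by 0.84 ± 0.10 (adjusted p = 0.000797), and Cdkn1b, the inhibitor p27 that keeps cells at rest, fell by 0.73 ± 0.11 (adjusted p = 0.00306). Cdkn2a, which encodes the inhibitors p16 and p19ARF, rose by 0.78 ± 0.11 (adjusted p = 0.00171). Myc, the driver of growth genes, was high in all groups and not called (11.78 and 11.50 with IL-2 and 11.94 and 11.86 with IL-12, adjusted p = 0.157), while Mxd4, a repressor that competes for its partner Max, fell by 2.24 (adjusted p = 8.79e-06). The call of Mcm2 was lost without IL-2 replicate 1 (adjusted p = 0.0515) and without IL-2 replicate 2 (adjusted p = 0.0798). It was also lost without IL-12 replicate 2 (adjusted p = 0.0634).

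Genes that keep lymphocytes at rest were lower. Of 24 tested FOXO targets and quiescence genes 13 fell and 1 rose, with a median of -0.51. Pik3ip1, an inhibitor of phosphoinositide 3-kinase (PI3K), read 10.06 and 10.24 with IL-2, 8.67 and 8.13 with IL-12 and 10.02 and 10.04 in naive cells. The difference was -1.75 ± 0.17, 3.36-fold lower, adjusted p = 0.00023. Sesn1, a brake on the growth kinase mTORC1, read 10.50 and 10.63 with IL-2, 9.32 and 9.56 with IL-12 and 11.29 and 11.26 in naive cells. The difference was -1.13 ± 0.12, 2.19-fold lower, adjusted p = 0.000351. The IL-2 arrays lay close to the naive level for Pik3ip1 and between naive and IL-12 for Sesn1, and the IL-12 arrays were the lowest of the 6 for both. Btg2 (-1.01), which slows division, and Slfn1 (-0.97), a schlafen protein of resting T cells, fell in every fit without 1 primed array, and Trib2, a pseudokinase, was the member that rose (1.34, adjusted p = 0.000116). Members called lower numbered 7, 6, 12 and 7 with 1 primed array left out (medians from -0.57 to -0.38). Klf2, a target of FOXO1 that promotes circulation, read 10.43 and 10.60 with IL-2, 10.34 and 10.17 with IL-12 and 10.60 and 10.78 in naive cells and was not called (adjusted p = 0.16). Autophagy genes leaned the same way without a call that held: 7 of 28 were lower and 0 higher, the median was -0.20, and the count was 0, 0, 2 and 0 with 1 primed array left out (medians from -0.23 to -0.14).

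Factors of the naive and stem-like state also fell, in 14 of 21 tested genes with 2 rises (median -0.65). Their differences ran from -5.38 to 0.73. Id3, an inhibitor of E proteins found in memory precursors, read 8.96 and 9.33 with IL-2, 7.19 and 7.20 with IL-12 and 8.01 and 8.25 in naive cells. The difference was -1.95 ± 0.14, 3.86-fold lower, adjusted p = 6.17e-05. Priming with IL-2 had left Id3 above the naive level and IL-12 below it. Foxp1 (-0.68, adjusted p = 0.00237), which keeps T cells quiescent, and Tcf12 (-0.71, adjusted p = 0.0025), an E protein, were smaller changes called in every fit without 1 primed array. Members called lower numbered 10, 8, 11 and 11 with 1 primed array left out (medians from -0.70 to -0.55). Bach2, a repressor of effector genes, fell from 9.72 and 9.73 to 9.08 and 8.62 (-0.88, adjusted p = 0.0208), and Lef1, a factor of naive T cells, by 0.40 (adjusted p = 0.026). Their calls were lost without IL-2 replicate 1 for Bach2 and Lef1 (adjusted p from 0.0998 to 0.101) and without IL-2 replicate 2 for Bach2 and Lef1 (adjusted p from 0.117 to 0.2). The same happened without IL-12 replicate 1 for Lef1 (adjusted p = 0.0795) and without IL-12 replicate 2 for Bach2 and Lef1 (adjusted p from 0.144 to 0.173).

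The transcription factors of effector fate moved against these. Of 15 tested 8 rose and 3 fell (with 1 primed array left out, 6, 8, 7 and 7 higher, and 3, 2, 3 and 2 lower). Zeb2, which drives terminal effector cells, read 6.39 and 6.49 with IL-2, 7.89 and 8.25 with IL-12 and 6.99 and 6.93 in naive cells. The difference was 1.63 ± 0.13, 3.09-fold higher, adjusted p = 0.00011. Prdm1, which encodes Blimp-1, read 7.75 and 7.87 with IL-2, 8.99 and 9.30 with IL-12 and 6.91 and 7.02 in naive cells. The difference was 1.33 ± 0.13, 2.52-fold higher, adjusted p = 0.000243. Both were highest on the IL-12 arrays. Bhlhe40 (1.27, adjusted p = 0.00559), which is needed for cytokine output and mitochondrial function, Hopx (1.51, adjusted p = 5.35e-05) and Rora (1.03, adjusted p = 0.000232) rose as well. Gata3, the regulator of type 2 genes that also supports CD8+ T cell maintenance, fell from 10.88 and 10.58 to 8.97 and 8.76, below the naive 9.84 and 9.98 (-1.86 ± 0.13, 3.64-fold lower, adjusted p = 5.76e-05). Tox, a factor of chronically stimulated cells that naive cells also expressed here, read 9.51 and 9.65 with IL-2, 7.81 and 7.51 with IL-12 and 10.34 and 10.35 in naive cells (difference -1.92 ± 0.13, 3.79-fold lower, adjusted p = 3.09e-05). Nr4a3, an early gene of receptor signalling, fell by 1.22 (adjusted p = 0.000536). Among AP-1 factors Fosl2 rose by 0.95 ± 0.14 (adjusted p = 0.00231), and 12 of the 14 tested in that list were not called.

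**Figure D5:**
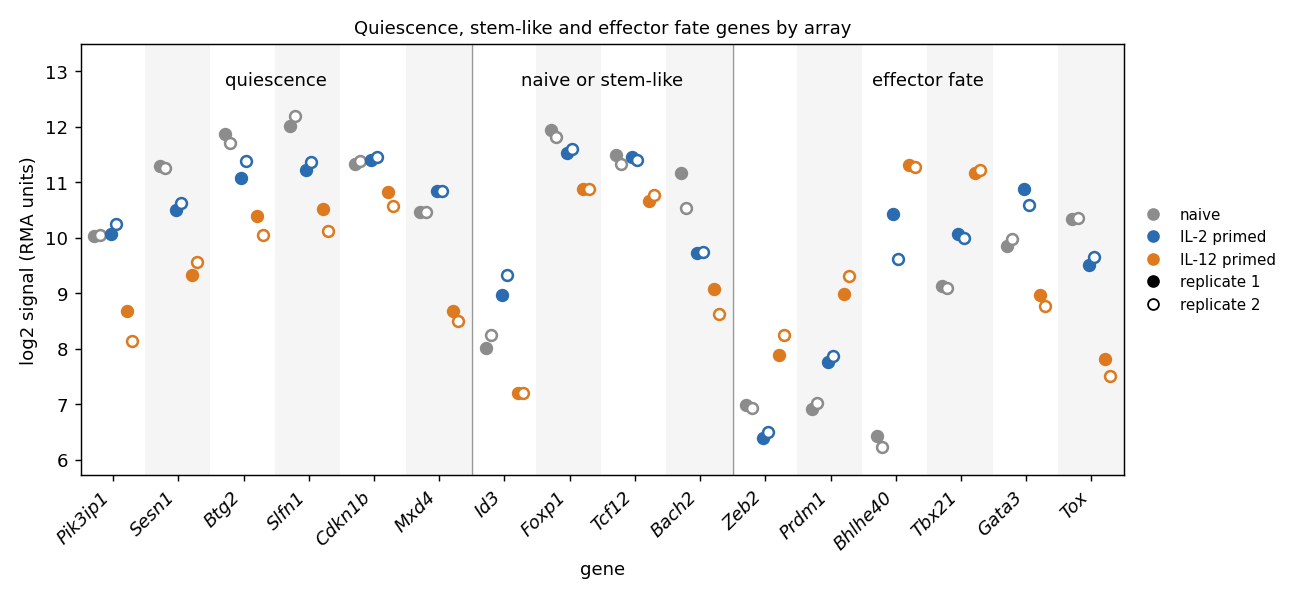
Log2 signal on each of the 6 arrays (vertical axis, log2 RMA units). The genes are 6 of quiescence, 4 regulators of the naive or stem-like state and 6 shown under effector fate. Tox is shown under effector fate but comes from the list of NR4A, TOX, EGR and NFAT factors. Each point is 1 array, grey for naive, blue for IL-2 and orange for IL-12. Pik3ip1, Sesn1, Btg2, Slfn1, Cdkn1b, Mxd4, Id3, Foxp1, Tcf12, Bach2, Gata3 and Tox were lower on both IL-12 arrays than on both IL-2 arrays, and Zeb2, Prdm1, Bhlhe40 and Tbx21 were higher.

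Signalling pathways other than JAK and STAT changed in single parts. In the NF-kappaB pathway 7 of 19 tested genes fell and 1 rose (median -0.38). Traf1, an adaptor of TNF receptors, read 10.95 and 11.01 with IL-2, 10.00 and 9.72 with IL-12 and 10.84 and 10.58 in naive cells (difference -1.12 ± 0.13, 2.17-fold lower, adjusted p = 0.000734). Ikbke, a kinase that also serves interferon induction, fell by 1.11 (adjusted p = 0.000467). Nfkbiz, an atypical inhibitor protein, fell (-1.03, adjusted p = 0.0018), whereas Bcl3, another protein of that kind, rose from 9.37 and 9.47 to 10.68 and 10.54 (1.19 ± 0.11, 2.28-fold higher, adjusted p = 0.000179). Lower members numbered 3, 6, 4 and 3 with 1 primed array left out (medians from -0.45 to -0.31). In the Notch pathway 4 of 15 were lower and 1 higher (with 1 primed array left out, 0, 0, 0 and 0 higher, and 4, 4, 4 and 4 lower), with Notch2 (-0.73, adjusted p = 0.00361), Psen2 (-0.95, adjusted p = 8e-04), a part of the protease that releases Notch, Dtx3 (-1.0, adjusted p = 0.00296) and Maml2 (-0.91, adjusted p = 0.001), a coactivator, all called in every fit without 1 primed array.

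In the TGF-beta pathway 6 of 18 genes fell and 2 rose (median -0.25), and the number lower was 1, 1, 2 and 2 with 1 primed array left out (medians from -0.25 to -0.21). Smad7, an inhibitor of the pathway, fell by 0.74 (adjusted p = 0.00408) and Tgfbr3, a coreceptor, rose by 0.80 ± 0.10 (adjusted p = 0.000867), both in every fit without 1 primed array. The signalling receptors Tgfbr1 (-0.63, adjusted p = 0.0144) and Tgfbr2 (-0.28, adjusted p = 0.0747) differed in whether they passed the test, and the call of Tgfbr1 was lost without IL-2 replicate 1 (adjusted p = 0.108) and without IL-2 replicate 2 (adjusted p = 0.0738). It was also lost without IL-12 replicate 1 (adjusted p = 0.0988). Smad7 is also a known target of TGF-beta in T cells, and whether TGF-beta signalling differed between the groups was not tested. Among the PI3K genes 3 rose and 3 fell of 20 (with 1 primed array left out, 0, 0, 0 and 2 higher, and 1, 1, 2 and 1 lower), and Inpp4b, a lipid phosphatase, was the one called in every fit without 1 primed array.

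The p38 arm of the stress kinases changed at both ends. Gadd45g and Gadd45b, which activate the kinases upstream of p38 and are known IL-12 targets, rose, Gadd45b from 9.32 and 8.43 to 10.22 and 9.67 (1.07, adjusted p = 0.0277). Map2k6, a kinase that activates p38, read 7.98 and 7.89 with IL-2, 6.67 and 6.67 with IL-12 and 8.08 and 8.05 in naive cells (difference -1.27 ± 0.10, 2.41-fold lower, adjusted p = 8.37e-05). Mapk11, the beta isoform of p38, fell by 1.0 (adjusted p = 0.00113). Of the 14 tested genes of this group 4 rose and 3 fell (with 1 primed array left out, 3, 2, 2 and 3 higher, and 2, 2, 3 and 2 lower). Of 12 tested dual specificity phosphatases, a family that switches these kinases off, 3 rose and 2 fell (median 0.01, lowest difference -1.35). Among them Dusp4 rose from 8.52 and 8.06 to 9.57 and 9.62 (1.31 ± 0.15, 2.48-fold higher, adjusted p = 0.000544), Dusp14 rose (0.92, adjusted p = 0.000892) and Dusp10 fell (-0.91, adjusted p = 0.00155). The call of Gadd45b was lost without IL-2 replicate 2 (adjusted p = 0.175) and without IL-12 replicate 1 (adjusted p = 0.153).

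Secreted products were split. Of 11 tested cytokines 4 rose and 3 fell (with 1 primed array left out, 3, 3, 3 and 4 higher, and 3, 1, 3 and 1 lower). Differences in that list ran from -0.84 to 5.14. Csf1, the growth factor of macrophages, read 8.24 and 7.85 with IL-2, 10.31 and 10.08 with IL-12 and 6.85 and 6.46 in naive cells. The difference was 2.15 ± 0.17, 4.45-fold higher, adjusted p = 0.000108. Ebi3, a subunit of IL-27 and IL-35, fell by 0.84 (adjusted p = 0.000851). Of 6 tested chemokines, Cxcl10, an interferon-induced ligand of Cxcr3, rose from 6.61 and 6.18 to 8.18 and 7.71 (1.56 ± 0.18, 2.94-fold higher, adjusted p = 0.000686). Xcl1, which attracts cross-presenting dendritic cells, fell from 8.87 and 8.74 to 7.53 and 7.70 (-1.19 ± 0.11, 2.28-fold lower, adjusted p = 0.000229), and Ccl5 fell by 1.09 (adjusted p = 0.000598). Among receptors for such signals 6 of 17 were higher and 3 lower (with 1 primed array left out, 3, 3, 5 and 3 higher, and 3, 3, 3 and 3 lower). Cxcr6 (0.88, adjusted p = 0.000635) and Cxcr4 (0.79, adjusted p = 0.00171) rose, while Cxcr3, which guides T cells into inflamed tissue, read 12.33 and 12.28 with IL-2, 11.61 and 11.68 with IL-12 and 10.58 and 10.51 in naive cells and fell by 0.66 (adjusted p = 0.00259), and Ccr4 fell by 1.32 (adjusted p = 0.000656).

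Killing proteins rose where they changed: 5 of 17 granule genes were higher and 0 lower (median 0.19; with 1 primed array left out, 5, 4, 5 and 5 higher). Fasl, the death ligand, read 7.53 and 7.97 with IL-2, 8.84 and 9.28 with IL-12 and 6.59 and 6.52 in naive cells (difference 1.31 ± 0.18, 2.47-fold higher, adjusted p = 0.00155). Stx11, a protein of granule fusion, read 8.77 and 8.83 with IL-2, 9.87 and 9.78 with IL-12 and 7.37 and 7.36 in naive cells. The difference was 1.03 ± 0.10, 2.04-fold higher, adjusted p = 0.000257. Serpinb9, which protects the cell from its own granzyme B, rose by 1.16 ± 0.17 (adjusted p = 0.00202). Gzmb was high in both primed groups, with overlapping arrays (12.76 and 12.54 with IL-2 and 12.35 and 12.62 with IL-12, adjusted p = 0.643).

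Adhesion molecules were mostly lower, with 11 of 21 tested falling and 2 rising (median -0.34). The number lower was 8, 7, 9 and 8 with 1 primed array left out (medians from -0.37 to -0.32). The differences ran from -5.09 to 0.98. Itgb1, the beta chain of the receptors for collagen, laminin and fibronectin, read 11.92 and 11.90 with IL-2, 10.61 and 11.05 with IL-12 and 9.65 and 9.70 in naive cells. The difference was -1.08 ± 0.14, 2.11-fold lower, adjusted p = 0.0013. Itga6, its partner for laminin, fell by 0.75 (adjusted p = 0.0013), and Itgb3 by 1.57 (adjusted p = 2.57e-05). Crtam (-1.13, adjusted p = 0.000171), Cd96 (-1.02, adjusted p = 3e-04) and Cd226 (-0.81, adjusted p = 0.00199), receptors for nectins and nectin-like proteins, fell together and in every fit without 1 primed array. The rises were Icam1 (0.98, adjusted p = 0.000744) and Itgam (0.95, adjusted p = 0.00141), and Itgam is also a marker of the myeloid list.

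Enzymes that build the sugars of surface glycoproteins fell in 9 of 23 tested genes and rose in 3 (median -0.23). Mgat5, which starts the branches of N-glycans, read 8.28 and 8.38 with IL-2, 7.39 and 7.42 with IL-12 and 9.44 and 9.26 in naive cells. The difference was -0.93 ± 0.11, 1.91-fold lower, adjusted p = 0.000656. Fut8, which adds the core fucose, read 8.87 and 8.61 with IL-2, 7.78 and 7.68 with IL-12 and 8.47 and 8.47 in naive cells. The difference was -1.01 ± 0.12, 2.01-fold lower, adjusted p = 0.000675. B4galt1, which adds galactose, fell by 0.82 (adjusted p = 0.00093), and the sialyltransferases St8sia1 and St8sia4 by 1.43 and 0.71 (adjusted p = 0.000382 and 0.00274). Members called lower numbered 7, 6, 7 and 9 with 1 primed array left out (medians from -0.27 to -0.16).

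Costimulatory molecules of the TNF receptor family rose in 6 and fell in 3 of 16 tested (with 1 primed array left out, 6, 4, 6 and 7 higher, and 3, 2, 4 and 2 lower). Tnfrsf1b, a receptor of TNF on activated T cells, read 9.27 and 9.24 with IL-2, 10.37 and 10.39 with IL-12 and 9.41 and 9.48 in naive cells. The difference was 1.13 ± 0.10, 2.18-fold higher, adjusted p = 0.000143. Tnfrsf25 (1.17, adjusted p = 0.000335), Tnfrsf8 (1.07, adjusted p = 0.00505) and the ligand Tnfsf9 (0.87, adjusted p = 0.00383) rose, while Tnfsf8, the ligand of Tnfrsf8, fell from 9.03 and 9.38 to 7.41 and 7.39 (-1.80 ± 0.13, 3.48-fold lower, adjusted p = 5.37e-05). In the CD28 and SLAM families 5 rose and 5 fell of 15 (with 1 primed array left out, 3, 3, 4 and 4 higher, and 3, 3, 3 and 3 lower). Slamf7 read 8.58 and 8.61 with IL-2, 10.65 and 10.11 with IL-12 and 9.13 and 9.08 in naive cells (difference 1.78 ± 0.16, 3.44-fold higher, adjusted p = 0.000191). Icos gained 0.73 ± 0.11 (adjusted p = 0.00229), whereas Cd7 fell by 1.25 (adjusted p = 0.000569). Inhibitory receptors showed no shared direction, with 3 of 15 higher and 4 lower (with 1 primed array left out, 1, 1, 0 and 0 higher, and 1, 2, 1 and 3 lower), and the fall of Cd160 (-1.19, adjusted p = 0.000379) was the call that held in every fit without 1 primed array. Pdcd1 (0.06, adjusted p = 0.811) and Lag3 (0.15, adjusted p = 0.538) were not called and overlapped between the groups. Havcr2 was lower (-0.76, adjusted p = 0.0178), with its call lost without IL-2 replicate 1 (adjusted p = 0.137) and without IL-12 replicate 1 (adjusted p = 0.11).

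Metal and nucleotide handling held a few further changes. Of 16 metallothionein and zinc genes 6 rose and 0 fell (with 1 primed array left out, 2, 3, 4 and 4 higher). Mt1 and Mt3, which store zinc and copper, rose by 0.73 ± 0.11 and 0.67 ± 0.11 (adjusted p = 0.00229 and 0.00336), although metallothioneins are close in sequence. Tfrc, the transferrin receptor that brings iron into dividing cells, read 9.98 and 9.91 with IL-2, 10.88 and 10.63 with IL-12 and 8.48 and 8.44 in naive cells. The difference was 0.81 ± 0.12, 1.75-fold higher, adjusted p = 0.00193. P2rx7, a channel opened by extracellular ATP, read 6.36 and 6.44 with IL-2, 8.22 and 7.60 with IL-12 and 7.38 and 7.34 in naive cells. The difference was 1.51 ± 0.18, 2.84-fold higher, adjusted p = 0.000735. The calcium entry regulator Orai2 fell by 0.78 (adjusted p = 0.00153) and Atp2b1, a pump that expels calcium, rose by 1.08 ± 0.11 (adjusted p = 0.00027). Among chromatin regulators Eed, a core subunit of the complex that places the repressive methyl mark on histone H3, rose by 0.89 ± 0.14 (adjusted p = 0.0036), and Tet3, an oxidase of methylated DNA, fell by 0.95 (adjusted p = 0.00209), with 3 higher and 5 lower of the 25 tested in that list (with 1 primed array left out, 2, 2, 2 and 3 higher, and 4, 2, 4 and 2 lower).

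Ranks 1 to 12 of the largest changes in each direction are not gone through as a group here. Ranks 13 to 40 held genes of several kinds. Among the rises, Eps8, an actin regulator, read 7.01 and 6.81 with IL-2, 9.79 and 9.51 with IL-12 and 6.74 and 6.69 in naive cells. The difference was 2.74 ± 0.13, 6.67-fold higher, adjusted p = 8.79e-06. Prag1, a pseudokinase that binds Csk, read 6.57 and 6.83 with IL-2, 9.22 and 9.23 with IL-12 and 9.26 and 8.97 in naive cells and was low on the IL-2 arrays alone. Errfi1, a feedback inhibitor of the EGF receptor, read 9.06 and 8.95 with IL-2, 11.02 and 11.15 with IL-12 and 8.78 and 9.09 in naive cells, and the IL-2 arrays overlapped with the naive ones. Smox, which oxidises spermine, rose from 7.76 and 7.59 to 10.56 and 9.45, with IL-12 replicate 1 the higher. Car5b, a mitochondrial carbonic anhydrase, read 9.51 and 9.20 with IL-2, 11.29 and 11.50 with IL-12 and 5.57 and 5.39 in naive cells, so that it was high in both primed groups and highest with IL-12. The transcription factors Onecut2 (2.29, adjusted p = 8.79e-06) and Etv5 (2.08, adjusted p = 0.000267) and the inhibitor of metalloproteinases Timp3 (2.38, adjusted p = 2.57e-05) were also in this range, as were the B cell and MHC class II genes Ms4a1, H2-Aa and Cd74.

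The falls in that range included Igf1r, the receptor of insulin-like growth factor 1, which read 9.83 and 9.92 with IL-2, 7.87 and 7.70 with IL-12 and 8.25 and 8.22 in naive cells. The difference was -2.09 ± 0.11, 4.25-fold lower, adjusted p = 1.32e-05. IL-2 primed cells had the highest values of Igf1r and IL-12 primed cells the lowest. Tlr1, a sensor of bacterial lipoproteins, read 9.70 and 9.76 with IL-2, 7.88 and 7.73 with IL-12 and 9.97 and 9.72 in naive cells, and the IL-2 arrays overlapped with the naive ones. The DNA-sensing family members Ifi208 (-1.81, adjusted p = 5.36e-05) and Ifi213 (-1.59, adjusted p = 0.000104) fell, in addition to the interferon list. Actn1, an actin crosslinker, read 11.51 and 11.63 with IL-2, 9.86 and 9.77 with IL-12 and 12.25 and 12.29 in naive cells. The difference was -1.75 ± 0.10, 3.37-fold lower, adjusted p = 2.28e-05. Timp2, another inhibitor of metalloproteinases, fell from 8.56 and 8.95 to 7.22 and 6.74 (-1.78, adjusted p = 0.00047), opposite to Timp3. The adaptors Sit1 (-1.61, adjusted p = 0.000194) and Tespa1 (-1.79, adjusted p = 0.000704), which tune signals of the T cell receptor, fell, and in the list of the receptor complex and its proximal signalling 6 of 20 were lower and 1 higher (with 1 primed array left out, 0, 0, 0 and 1 higher, and 1, 1, 2 and 1 lower). Of these, Cd5, an inhibitor of receptor signalling, fell by 0.66 (adjusted p = 0.0024) and was the call that held in every fit without 1 primed array.

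The called genes were also set against the naive level. For 686 of the 1095 genes higher with IL-12 (62.6%) the naive mean lay below both primed means, and for 730 of the 1226 lower genes (59.5%) it lay above both. Over all 11147 tested genes it lay below both for 4890 (43.9%) and above both for 4346 (39.0%), and these shares are the background to those counts. In those called genes IL-12 primed cells were farther from naive than IL-2 primed cells were. Naive cells lay beyond the IL-12 mean for 130 of the higher (11.9%) and 158 of the lower genes (12.9%), where IL-2 primed cells were the farther group, with Usp18, Il6st, Cish and Socs2 among the genes nearer to naive with IL-12. These groups share no arrays with the naive pair, but each position uses the same primed arrays as the call, so the counts describe the calls and test nothing further.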

How the data were processed

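RNA from each of 6 samples was measured on an Affymetrix array of its own, per the labels' protocols. The values, deposited by the authors on the log2 scale, were computed by RMA, per the submitters' processing notes, and the version of RMA is not given in the sources used here. Read depth does not apply to arrays, and their number limits the precision. Probe sets were named through GEO's platform annotation: of 35556 probe sets, 21789 had 1 gene symbol, 1621 several and 12146 none, and only the first kind was used. Where a gene had several probe sets, the brightest on average stood for it (19938 genes). Genes above the 50th percentile of all values (6.83) on 2 or more arrays were tested, 11147 in number. Values of up to 4.96 were treated as the floor, from 6 Y-linked genes in these female mice.

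The linear model (lmFit, then eBayes, of limma 3.58.1 under R 4.3.3) took in all 6 arrays, so that the naive arrays added to the estimate of the spread (3 residual and 5.62 prior degrees of freedom), with the contrast of IL-12 minus IL-2 and Benjamini-Hochberg adjustment over all tested genes. Gene lists, 83 in all, were described by their counts and medians. The members and lists were chosen with earlier results of these data known, so their directions are not independent evidence. Genes were named by a rule: in each list the 6 largest called changes whose arrays do not overlap and the 4 further members with the highest signal, members that moved against the majority of their list, the 40 largest rises and falls, and a list of cytokine, survival and fate genes. Names outside that rule were chosen after their values were seen: Sh2b3, Pmaip1, Ifit3, Oas2, Il10ra, Psma5, Cad, Mcm2, Mki67, Lef1 and Tfrc. The alternatives changed the filter, the choice of probe set, the scaling, the variance model, the arrays and the replicate block. Promoter windows and motifs were read from RefSeq tables of build GRCm38.p6, which held a window for 27025 genes, and matched by symbol. The fit was tested on simulated data. Figures were drawn with matplotlib 3.10.9 in Python 3.11.15.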

Additional observations from a re-analysis of the deposited data

How the results depend on the processing

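The count of called genes was 2321. It came to 3839 with array weights, to 3533 in a fit of the 4 primed arrays alone and to 256 when limma tested against a change of 1.5-fold, and the other filters, probe set rules, scalings and variance models gave 1681 to 2540. Leaving out 1 array gave 737 to 3533 calls, the highest value without either naive array. Of the genes shared by both fits none was called in opposite directions, apart from 1 gene each when probe sets were averaged or the most variable one was taken. Of 52 lists with at least 5 calls and a majority direction, 49 kept that direction under median centring and 51 under quantile normalization. Without 1 primed array 39 to 45 kept it. It turned in 3, 1, 4 and 2 lists, in the order of arrays given above. The list of the vacuolar ATPase, cathepsins and lysosome turned in each of these 4 fits. The low oxygen list turned without IL-2 replicate 1 and without IL-12 replicate 1. In the test against a 1.5-fold change 18 lists kept the direction, 5 turned and 29 were tied or had no call. Of 200 called genes named in the text, 168 were called in all 4 fits without 1 primed array. Irf1 reversed, to -0.05, with its most variable probe set. A fit with the replicate number as a block gave 2414 calls. The replicate numbers were not taken as pairing the samples, since deviations of same-numbered arrays correlated at 0.015 (naive and IL-2), -0.022 (naive and IL-12) and 0.153 (IL-2 and IL-12). With 2 arrays a group, small changes rest on few residual degrees of freedom, and probe sets near the floor give no order.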
